A study of Mus musculus with 2 samples.

Results

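The 3 latrophilins (Adgrl1, Adgrl2 and Adgrl3), the 4 teneurins (Tenm1 to Tenm4) and the 3 FLRTs (Flrt1, Flrt2 and Flrt3) were followed over the cell types of the embryonic mouse dorsal telencephalon. These 10 genes were taken by symbol from the 32285 genes listed in the deposited single-cell matrices, each symbol matching 1 row, and all 10 had enough UMIs (unique molecular identifiers, 1 per captured RNA molecule) to be tested in every comparison made here. The 2 wild-type samples were profiled by 10x Genomics 3' single-cell RNA-seq. Both came from control embryos of the EomesMllt3 line at embryonic day 14.5, labelled brain hemispheres as tissue and WT as genotype, and the methods name the background as C57BL/6J. No treatment was given and no second genotype is analysed here, so the comparisons are between cell types within the 2 samples, which keep the label numbers 1 and 3. The labels do not say that they came from separate embryos, and the p-values measure only the spread between these samples, which may be technical.

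Latrophilins are adhesion G protein-coupled receptors on the cell surface, and teneurins and FLRTs are membrane proteins that bind their extracellular part, often across a cell contact. Teneurins also pair with teneurins on neighbouring cells, and FLRTs also bind the UNC5 family of netrin receptors. In the developing cortex these proteins are known for roles in the migration of newborn neurons, in the spread of neurons and in the matching of synaptic partners.

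The matrices held 6163 and 8870 barcodes with 64182006 and 93295807 UMIs in replicates 1 and 3, and 5149 and 6854 cells were kept (23 barcodes occurred in both libraries, 16 of them among the kept cells). Cells were grouped into 26 clusters without using the 10 genes or their known partners, and clusters were named from fixed marker lists, each name ending in -like. The named groups used most were RGC-like cells (radial glial cells, the ventricular progenitors, 637 and 1497 cells), IPC-like cells (intermediate progenitors, 388 and 721), projection neuron-like cells (2732 and 2923) and MGE interneuron-like cells (medial ganglionic eminence, 334 and 219). Since the groups were built from the same cells in which the genes were then measured, each difference describes these groups. Haemoglobin and other red blood cell marker UMIs were higher in replicate 3 than in replicate 1 in most groups (109 against 553 UMIs per 1000000 in RGC-like cells, 291 against 1033 in MGE interneuron-like cells), and the part of this difference in the results was not tested. Several groups were shared unevenly between the replicates. RGC-like cells made up 12.4% and 21.8% of the cells kept, and endothelial-like cells numbered 5 and 44. There were also 443 and 29 cells called LGE lineage-like (lateral ganglionic eminence) and 478 and 188 cells in a neuron cluster led by Tafa1, Tafa2 and Tfap2d.

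Of the 10 genes, 9 had a promoter window in the RefSeq table (GRCm38.p6, which is mm10), and Flrt1 had no entry. The 250 bases upstream of the listed start are shown for 1 gene of each family, chosen because that start is the outer edge of the annotated gene. Capitals mark the E-box letters CANNTG, the motif of the basic helix-loop-helix factors that act in intermediate progenitors and young neurons. Adgrl1 (chr8:83899848-83900097, plus strand) held no such match, Tenm4 (chr7:96170994-96171243, plus strand) held 1 (CACATG, first base at -139) and Flrt3 (chr2:140671477-140671726, minus strand) held 2 (CAAATG at -177 and CATCTG at -102, the second reading CAGATG on the other strand).
Adgrl1: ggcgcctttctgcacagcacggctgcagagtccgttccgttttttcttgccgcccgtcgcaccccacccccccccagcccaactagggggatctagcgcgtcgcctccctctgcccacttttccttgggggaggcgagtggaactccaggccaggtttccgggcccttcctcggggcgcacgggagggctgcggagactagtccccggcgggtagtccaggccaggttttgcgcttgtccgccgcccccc
Tenm4: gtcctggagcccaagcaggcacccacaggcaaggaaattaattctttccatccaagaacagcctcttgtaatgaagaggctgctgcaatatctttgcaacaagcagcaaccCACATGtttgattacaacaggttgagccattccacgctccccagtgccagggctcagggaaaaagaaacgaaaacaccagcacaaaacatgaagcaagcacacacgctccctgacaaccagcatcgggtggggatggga
Flrt3: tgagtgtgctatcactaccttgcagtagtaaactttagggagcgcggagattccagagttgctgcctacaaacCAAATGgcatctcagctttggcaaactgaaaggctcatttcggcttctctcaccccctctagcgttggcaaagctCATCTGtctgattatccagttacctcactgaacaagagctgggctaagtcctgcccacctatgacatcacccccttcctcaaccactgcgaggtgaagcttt
Among 32851 windows of this length, 66.2% held CANNTG and 14.4% held CAGATG on either strand, so a match is common, and it describes the letters and not a bound site.

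Levels are given as CPM, the UMIs of a gene per 1000000 UMIs of all cells of a group in 1 replicate. They were compared between groups for the same gene and not between genes. Red blood cell-like cells (57 and 95 cells), which should hold little neural RNA of their own, served as a guide to background from free RNA. Their own markers made up 820358 and 857498 CPM, and their median depth was 5311 and 4541 UMIs. Their CPM is therefore a rough guide only, and the background in deeper cells was not measured.

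Adgrl1 (chr8:83900098-83941954, plus strand) was a gene of neurons in these samples. MGE interneuron-like cells held 98.1 and 96.3 CPM, projection neuron-like cells 79.5 and 78.9 CPM, and Cajal-Retzius-like cells (31 and 64 cells) 91.3 and 57.2 CPM. The last of these are the reelin-secreting neurons of the marginal zone. RGC-like cells (24.4 and 22.7 CPM), IPC-like cells (25.4 and 19.1 CPM), meningeal-like cells (30.01 and 24.8 CPM) and pericyte-like cells (17.8 and 18.7 CPM) were low. Both neuron groups lay above both progenitor groups in each replicate without overlap. The red blood cell-like value of replicate 1 was 23.0 CPM (8 UMIs), near the progenitor levels in that library, against 1.87 CPM in replicate 3.

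Adgrl2 (chr3:148815586-148989096, minus strand) was present in progenitors and neurons alike. Projection neuron-like cells held 431 and 363 CPM, RGC-like cells 267 and 223 CPM, and MGE interneuron-like cells 247 and 241 CPM. IPC-like cells, at 141 and 130 CPM, lay below both the progenitors before them and the neurons after them as pooled groups. Single clusters did not all follow this. The IPC-like cluster led by Rrm2 (177 and 173 CPM) lay above the RGC-like cluster led by Ltbp1 (156 and 163 CPM). It overlapped the projection neuron cluster led by Slit3 (180 and 175 CPM). Levels in meningeal-like (156 and 134 CPM) and IPC-like cells overlapped, as did those in RGC-like and MGE interneuron-like cells. Endothelial-like cells measured 546 and 387 CPM, from only 5 and 44 cells.

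Adgrl3 (chr5:81019085-81827825, plus strand) spanned a wide range. MGE interneuron-like cells held 1631 and 1625 CPM, Cajal-Retzius-like cells 1102 and 1134 CPM and projection neuron-like cells 834 and 442 CPM. Pericyte-like cells (39 and 42 cells) held 609 and 298 CPM and meningeal-like cells 332 and 316 CPM, and the pericyte-like range overlapped those of both its neighbours. In the progenitors it was low, with 76.7 and 103.7 CPM in RGC-like cells and 41.9 and 25.7 CPM in IPC-like cells. Red blood cell-like cells held 92.2 and 35.6 CPM, above the IPC-like level in each replicate and above the RGC-like level in replicate 1. The IPC-like values were thus not told apart from background.

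Among the ligands, Tenm1 (chrX:42527866-43429168, minus strand) was found mainly in neurons. Projection neuron-like cells held 199.8 and 201.5 CPM, MGE interneuron-like cells 83.4 and 84.8 CPM and Cajal-Retzius-like cells 80.7 and 38.5 CPM. The projection neuron level was uneven, from 53.2 and 50.7 CPM in newborn-like cells, below the MGE interneuron-like level, to 637.8 and 613.0 CPM in deep corticofugal-like cells. LGE lineage-like cells, not compared because replicate 3 held 29 of them, stood at 251 and 347 CPM. RGC-like (19.5 and 4.5 CPM) and IPC-like cells (17.6 and 6.7 CPM) were far below, and in both groups replicate 1 was the higher. Pericyte-like cells had no UMI of Tenm1 in either replicate, and a count of 0 allows up to 5.93 and 5.11 CPM there (3 UMIs per library).

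Tenm2 (chr11:36006656-37237053, minus strand) was highest in neurons. MGE interneuron-like cells held 5875 and 6910.5 CPM and projection neuron-like cells 3175 and 2537 CPM, ranges that did not overlap. RGC-like cells held 314 and 502 CPM and IPC-like cells 232 and 437 CPM, with replicate 3 the higher in both. The red blood cell-like level was 277 CPM in replicate 1 (96 UMIs) and 9.37 CPM in replicate 3 (5 UMIs). The progenitor values lay near that level in replicate 1 and well above it in replicate 3. How far it reflects free RNA in progenitors was not tested. Cajal-Retzius-like cells, which are neurons too, stood at only 133 and 248 CPM.

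Tenm3 (chr8:48225665-49522824, minus strand) stood near its neuronal levels in radial glia. RGC-like cells held 358 and 349 CPM, projection neuron-like cells 402 and 368 CPM and MGE interneuron-like cells 319 and 309 CPM. IPC-like cells were lower at 159 and 217 CPM. Meningeal-like cells (44.3 and 39.3 CPM), Cajal-Retzius-like cells (7.0 and 44.0 CPM) and pericyte-like cells (37.6 and 3.4 CPM) lay below every value of these 4 groups.

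Tenm4 (chr7:96171244-96911093, plus strand, its promoter window shown above) was present throughout the excitatory lineage. RGC-like cells held 615 and 814 CPM, IPC-like cells 1385 and 1421 CPM, and projection neuron-like cells 1754 and 1871 CPM, with no overlap between these groups. MGE interneuron-like cells, at 415 and 550 CPM, were below all of them. Cajal-Retzius-like cells (479 and 735 CPM) overlapped both RGC-like and MGE interneuron-like cells. Single clusters did not all follow the order of the pooled groups. The RGC-like cluster led by Ltbp1 (1345 and 1266 CPM) lay above the IPC-like cluster led by Rrm2 (909 and 1118 CPM). The IPC-like cluster led by Kif26b (1696 and 1542 CPM) lay above the projection neuron clusters led by Tafa1 (1338 and 1464 CPM) and Slit3 (1477 and 1415 CPM).

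Flrt1 (chr19:7087464-7166183, minus strand) had its highest level among the 8 named groups in intermediate progenitors. IPC-like cells held 75.9 and 58.9 CPM, projection neuron-like cells 29.0 and 32.8 CPM and RGC-like cells 2.2 and 3.1 CPM. These 3 groups were fully apart. MGE interneuron-like cells held 8.5 and 8.8 CPM, from 15 and 10 UMIs, and red blood cell-like cells held none, which allows up to 8.64 and 5.62 CPM. The gene lies within Macrod1 on the opposite strand (chr19:7056728-7198062), a gene for an ADP-ribose hydrolase, and Macrod1 showed a like pattern of 110.5 and 92.9 CPM in IPC-like, 42.9 and 53.2 CPM in projection neuron-like and 9.0 and 9.3 CPM in RGC-like cells. The strand setting of the counting is not given in the sources used here, and whether UMIs of one gene were counted for the other was not tested.

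Flrt2 (chr12:95692006-95785215, plus strand) was highest outside the neural lineage, in meningeal-like cells (43 and 128 cells), at 699 and 829 CPM. Projection neuron-like cells (247 and 263 CPM) and MGE interneuron-like cells (246 and 261 CPM) overlapped. RGC-like cells stood at 31.3 and 31.2 CPM and IPC-like cells at 10.4 and 6.8 CPM, the lowest of the neural groups. Cajal-Retzius-like cells differed between replicates (21.1 and 100.1 CPM).

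Flrt3 (chr2:140658198-140671476, minus strand, its promoter window shown above) was highest among the 8 named groups in Cajal-Retzius-like cells at 98.3 and 115.6 CPM, followed by projection neuron-like cells at 61.4 and 59.9 CPM and meningeal-like cells at 42.9 CPM in both replicates. RGC-like (25.0 and 35.8 CPM), IPC-like (19.9 and 35.0 CPM) and MGE interneuron-like cells (20.3 and 25.6 CPM) overlapped. The Cajal-Retzius-like range overlapped those of upper layer-like projection neurons (102.8 and 100.6 CPM) and of the newborn-like cluster led by Gabra2 (105.9 and 126.9 CPM). The gene lies within Macrod2 on the opposite strand, of which RGC-like cells held 279 and 292 CPM, IPC-like cells 193 and 200.5 CPM and projection neuron-like cells 1079 and 872 CPM, the same order of means as for Flrt3. MGE interneuron-like cells, where Flrt3 was low, held 831 and 899 CPM of Macrod2. Whether UMIs of one were counted for the other was not tested.

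**Figure D1:**
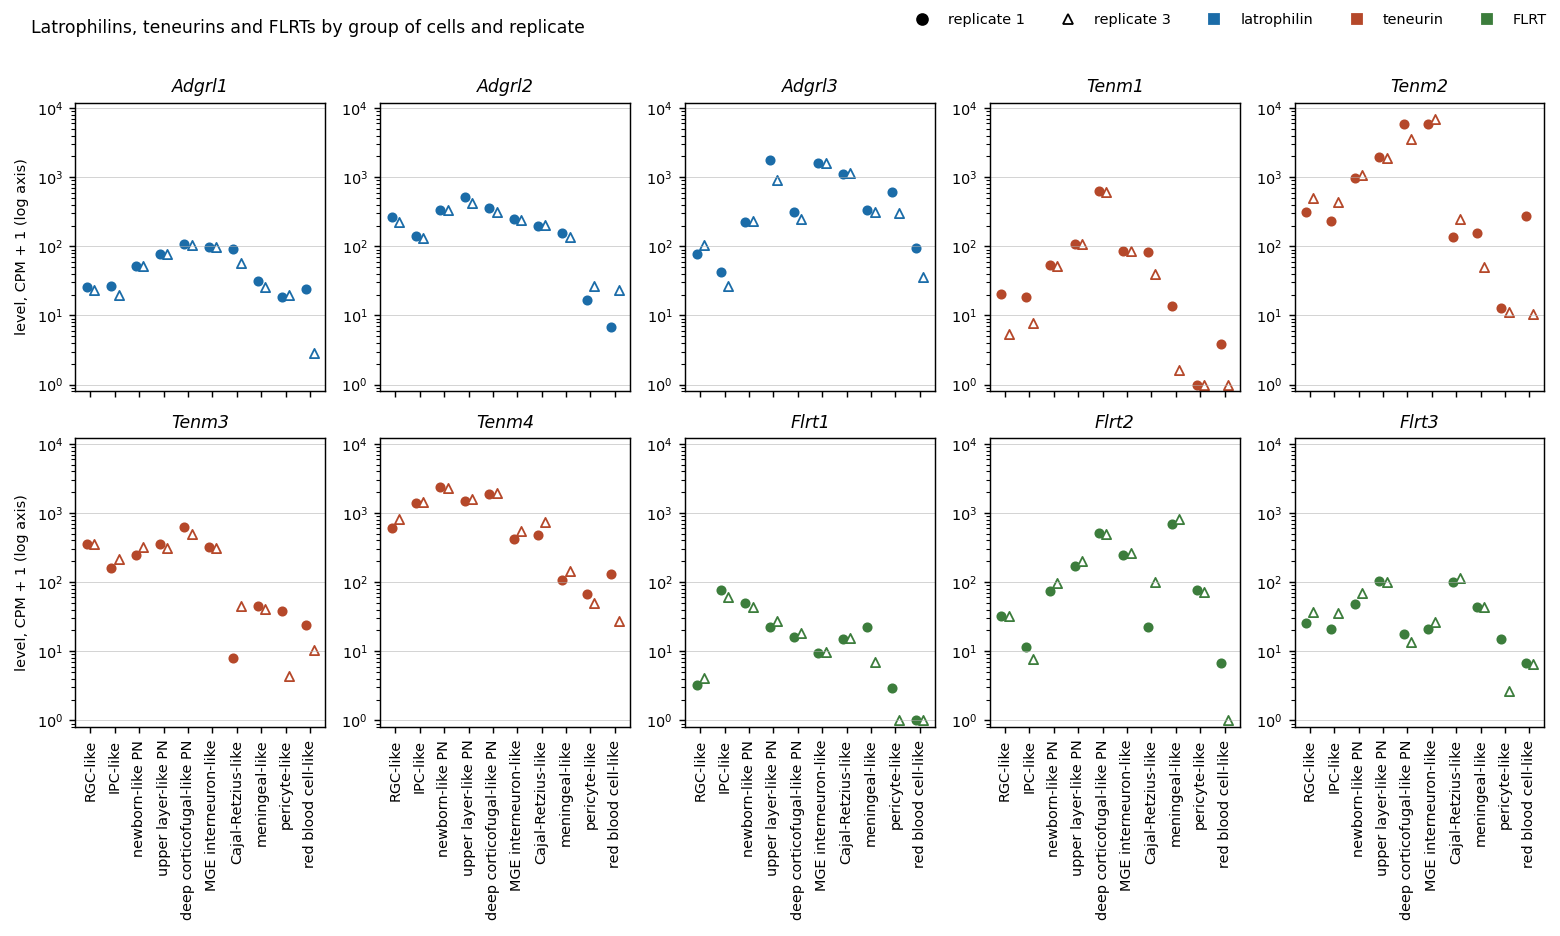
Level of each of the 10 genes (CPM, log axis) in named groups of cells, drawn as CPM + 1 so that a level of 0 sits at the bottom, with projection neurons (PN) split into newborn-like, upper layer-like and deep corticofugal-like cells, filled circles for replicate 1, open triangles for replicate 3 and 1 colour per family. Projection neuron-like cells without a subclass (842 and 1082 cells) are not drawn. Flrt1 is highest in IPC-like cells (75.9 and 58.9 CPM) and Flrt2 in meningeal-like cells (699 and 829 CPM).

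For each gene the 8 groups were put in order of their mean level, and of the 7 neighbouring pairs in that order 3 or 4 were apart in both replicates for every gene. The others overlapped, mostly among the low groups. The ratio of the highest to the lowest group mean was 7.80 for Adgrl1, the least of the 10 genes, and 579 for Tenm2, and for Tenm1 and Flrt1 it had no finite value because the lowest group had no UMI.

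The first comparison followed the excitatory lineage from radial glia to intermediate progenitors. Sums of UMIs per group and replicate entered edgeR's quasi-likelihood test, with p-values adjusted over 14838 genes by Benjamini-Hochberg. Of the 10 genes, 4 were higher and 2 lower in RGC-like than IPC-like cells (21.6% of all tested genes were higher and 20.9% lower), and the share that was lower was close to that of all genes. The median log2 difference was 0.12 over the 10 genes and 0.003 over all. Flrt1 showed the largest difference, lower in RGC-like cells by 24.0-fold (log2 -4.59 ± 0.19 SE, edgeR adjusted p = 1.31e-06). Tenm4 was also lower in RGC-like cells (log2 -1.06 ± 0.17, edgeR adjusted p = 0.00143). Higher in RGC-like cells were Flrt2 (log2 1.80 ± 0.16, edgeR adjusted p = 5.23e-05), Tenm3 (0.82 ± 0.15, edgeR adjusted p = 0.00285), Adgrl2 (0.77 ± 0.13, edgeR adjusted p = 0.00159) and Adgrl3 (1.35 ± 0.33, edgeR adjusted p = 0.0101). The Adgrl3 difference rested on levels near those of red blood cell-like cells, was 0.79 in replicate 1 and 1.91 in replicate 3, and lost its call with coarser or finer clusters (log2 0.48 and 0.43). For Adgrl1 (0.02), Tenm1 (-0.15), Tenm2 (0.19) and Flrt3 (0.04) the difference did not pass the test, with edgeR adjusted p between 0.656 and 0.942.

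From intermediate progenitors to projection neurons, 9 of the 10 genes were lower in IPC-like cells and 1, Flrt1, was higher (26.3% of all tested genes were lower and 22.8% higher). All 3 latrophilins and all 4 teneurins were among the lower genes, and the median log2 difference was -1.84 against -0.03 over all genes. Flrt2 differed most, 33.3-fold lower in IPC-like cells (log2 -5.06 ± 0.16, edgeR adjusted p = 2.51e-07). Among receptors, Adgrl3 was 21.1-fold lower (log2 -4.40 ± 0.36), a size that rests on IPC-like values not told apart from background. Adgrl1 was 3.98-fold lower (-1.99 ± 0.12) and Adgrl2 3.24-fold lower (-1.70 ± 0.13). In this order the edgeR adjusted p was 1.52e-05, 3.59e-06 and 1.13e-05. Tenm1 was 19.3-fold lower (log2 -4.27 ± 0.58, edgeR adjusted p = 0.000334), with -3.65 in replicate 1 and -5.01 in replicate 3. Tenm2 was 9.38-fold lower (log2 -3.23 ± 0.34, edgeR adjusted p = 7.81e-05), with -3.94 and -2.66 in the replicates. Tenm3 (log2 -1.17 ± 0.15) and Flrt3 (-1.24 ± 0.24) fell in between, and Tenm4 differed least (-0.51 ± 0.17, edgeR adjusted p = 0.0355). Flrt1 was 1.96-fold higher in IPC-like cells (log2 0.97 ± 0.15, edgeR adjusted p = 0.000617). The Tenm4 call was lost with other scalings (adjusted p = 0.0540 with RLE size factors and 0.102 with library sizes only), and the Flrt1 call was lost with coarser clusters (log2 0.46, adjusted p = 0.0526). Of all genes called, 46.4% were higher in IPC-like cells, and 57.3% with library sizes only.

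Against projection neuron-like cells, RGC-like cells were lower in 9 of the 10 genes and higher in none (36.0% of all tested genes were lower and 30.2% higher). The median log2 difference was -2.51 against -0.08 over all genes. Tenm1 differed most (21.4-fold, log2 -4.42 ± 0.55, -3.59 and -5.66 in the replicates), then Flrt1 (12.3-fold, -3.61 ± 0.18), Flrt2 (9.53-fold, -3.25 ± 0.13) and Adgrl3 (8.26-fold, -3.05 ± 0.32, -3.68 and -2.31 in the replicates). Tenm2 was 8.20-fold and Tenm4 2.97-fold lower, and Adgrl1, Adgrl2 and Flrt3 were 3.93-fold, 1.91-fold and 2.30-fold lower. Tenm3 was the gene that did not pass (log2 -0.35 ± 0.15, edgeR adjusted p = 0.0637), and with the replicate as a block it did (-0.36, adjusted p = 0.0375). Without the Tfap2d-led cluster, chosen to be left out after seeing the data, the Adgrl3 difference was -2.36. Higher genes made up 45.6% of those called, and 57.6% with library sizes only.

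Interneurons of the medial ganglionic eminence enter the cortex by tangential migration, and the study asks how they signal to cortical progenitors. Against RGC-like cells, MGE interneuron-like cells were higher in 6 of the 10 genes and lower in 1 (29.8% of all tested genes were higher and 31.2% lower), with a median log2 difference of 1.88 against -0.02 over all genes. Adgrl3 was 18.9-fold higher (log2 4.24 ± 0.34, edgeR adjusted p = 1.09e-05) and Tenm2 16.4-fold higher (4.04 ± 0.36, edgeR adjusted p = 1.77e-05). Flrt2 (8.50-fold), Tenm1 (8.08-fold, log2 2.19 and 4.25 in the replicates), Adgrl1 (4.34-fold) and Flrt1 (3.11-fold) were higher too, the last from 15 and 10 UMIs. Tenm4 was 1.41-fold lower (log2 -0.50 ± 0.18, edgeR adjusted p = 0.0351), a call that was lost with a stricter cell filter (-0.40) and when predicted doublets were kept (0.022). Adgrl2 (0.07), Tenm3 (-0.09) and Flrt3 (-0.38) did not pass.

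Between the 2 kinds of neuron, 2 of the 10 genes were higher and 4 lower in MGE interneuron-like than projection neuron-like cells (13.7% of all tested genes were higher and 22.0% lower). Adgrl3 was 2.29-fold higher (log2 1.19 ± 0.30, edgeR adjusted p = 0.0151) and Tenm2 2.01-fold higher (1.005 ± 0.32, edgeR adjusted p = 0.0367). The Tenm2 difference is from all projection neuron-like cells together, and deep corticofugal-like cells (5879 and 3596 CPM) overlapped MGE interneuron-like cells (5875 and 6910.5 CPM). The Adgrl3 difference is also from all of them together. Upper layer-like cells (1786 and 923 CPM of Adgrl3) overlapped MGE interneuron-like cells (1631 and 1625 CPM), and the Tfap2d-led cluster (3190 and 2338 CPM) lay above these. Tenm4 was 4.20-fold lower (log2 -2.07 ± 0.18, edgeR adjusted p = 7.38e-05), Flrt1 3.93-fold lower (-1.98 ± 0.25), Flrt3 2.98-fold lower (-1.58 ± 0.32) and Adgrl2 1.81-fold lower (-0.86 ± 0.13). Adgrl1 (0.14) and Flrt2 (-0.17 ± 0.13, edgeR adjusted p = 0.348) did not pass. Tenm1 (-1.41 ± 0.52, edgeR adjusted p = 0.0646) and Tenm3 (-0.45 ± 0.15, edgeR adjusted p = 0.0522) passed only with the replicate as a block (-1.48 with adjusted p = 0.0165, and -0.44 with adjusted p = 0.0355) and under some other settings. Adgrl3 was 1.88 without the Tfap2d-led cluster, and Tenm2 lost its call without the low-count filter (0.91, adjusted p = 0.0638) and with doublets kept (0.93, adjusted p = 0.0562), as did Flrt3 with doublets kept (-0.90, adjusted p = 0.0785). Among the genes called, 38.4% were higher, against 52.3% with library sizes only and 48.5% by DESeq2.

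**Figure D2:**
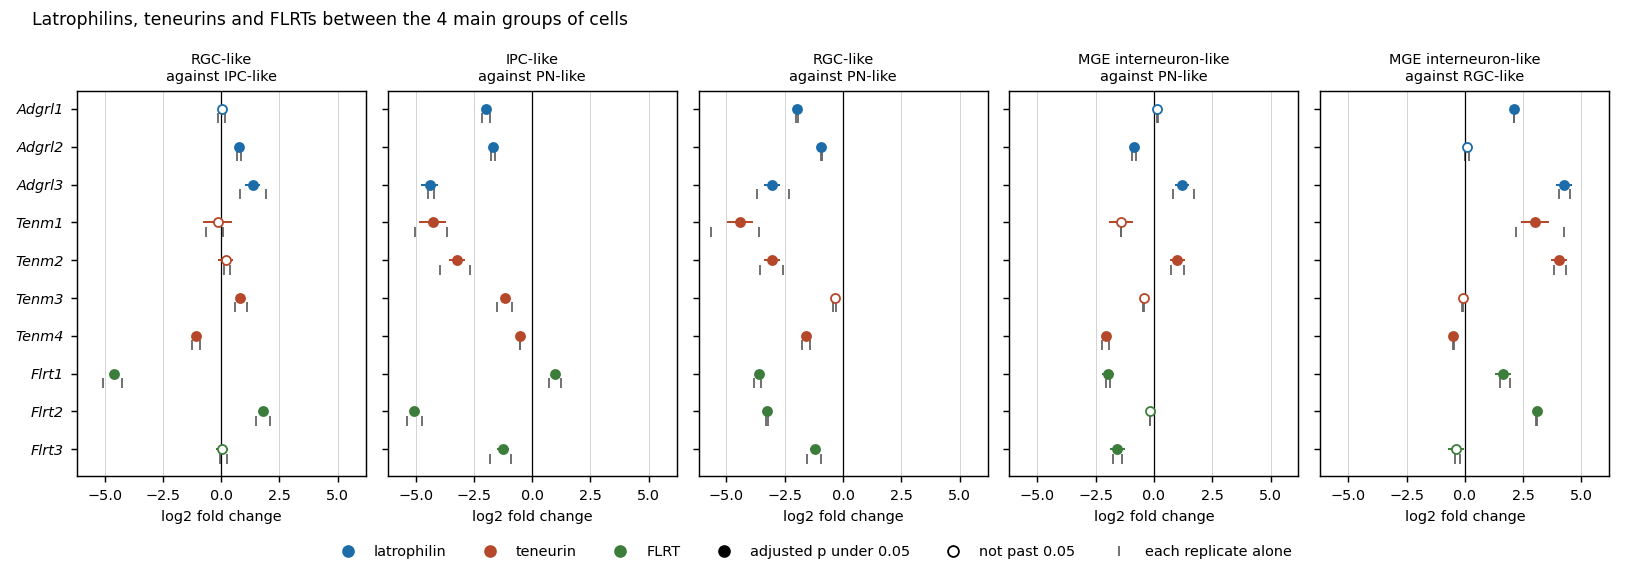
Log2 difference of each gene in the 5 comparisons among RGC-like, IPC-like, projection neuron-like and MGE interneuron-like cells, with bars of 1 SE and filled points where the edgeR adjusted p was under 0.05, and grey ticks for the log2 difference within each replicate. Nearly all genes lie left of 0 for IPC-like against projection neuron-like cells, with Flrt1 alone on the right at 0.97.

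Projection neuron-like clusters were next divided by marker lists of their layer and age. The clusters led by Ndst3, Ldb2 and Slit3, with 842 and 1082 cells, got no subclass and entered none of the finer comparisons. Deep corticofugal-like cells (558 and 569 cells) held 6299 and 5384 CPM of the deep-layer list, against 963 and 1112 CPM in newborn-like cells (378 and 571 cells) and 632 and 550 CPM in upper layer-like cells (954 and 701 cells). The upper layer list did not separate upper layer-like (1297 and 692 CPM) from newborn-like cells (1157 and 967 CPM), and the newborn list was as high in upper layer-like (3216 and 3869 CPM) as in newborn-like cells (3575 and 3746 CPM). The name upper layer-like thus marks a contrast with deep cells only. All finer groups entered 1 edgeR fit over 14656 genes.

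Deep corticofugal-like cells were higher in 5 and lower in 2 of the 10 genes than newborn-like cells (17.1% of all tested genes were higher and 14.3% lower). Tenm1 stood at 637.8 and 613.0 CPM in deep cells against 53.2 and 50.7 CPM in newborn-like cells, a 13.1-fold difference (log2 3.71 ± 0.46, edgeR adjusted p = 6.32e-06). Flrt2 stood at 506.2 and 490.9 CPM against 72.4 and 97.4 CPM, 6.38-fold higher (log2 2.67 ± 0.29, edgeR adjusted p = 9.46e-07). In neither gene did the groups come near each other. Tenm2 (5879 and 3596 against 957 and 1078 CPM, log2 2.35 ± 0.57, edgeR adjusted p = 0.00365), Tenm3 (626 and 488 against 248 and 317 CPM, 1.11 ± 0.31, edgeR adjusted p = 0.00993) and Adgrl1 (105.5 and 104.8 against 51.8 and 51.1 CPM, 1.15 ± 0.18, edgeR adjusted p = 6.86e-05) were higher in deep cells as well. Flrt1 (14.98 and 17.6 against 48.4 and 43.2 CPM, log2 -1.34 ± 0.24) and Flrt3 (16.8 and 12.6 against 46.9 and 67.9 CPM, -1.81 ± 0.27) were lower in deep cells, so between these pooled groups the FLRTs moved in opposite directions. The newborn-like group pooled unlike clusters. In its Cdh8-led cluster Flrt3 was 12.7 and 33.2 CPM, overlapping the deep cells, and in its Gabra2-led cluster 105.9 and 126.9 CPM. Flrt2 (17.3 and 16.6 against 167.5 and 235.2 CPM) and Adgrl3 (86.8 and 93.6 against 469 and 474 CPM) were also lower in the Cdh8-led cluster. Adgrl2 (0.11), Adgrl3 (0.41) and Tenm4 (-0.13) did not pass. Which clusters were called newborn-like changed between settings: with another clustering seed Flrt3 was -0.66 (adjusted p = 0.110) and Adgrl3 1.61 (adjusted p = 0.000733), and Tenm3 lost its call in 3 settings, at 0.57 to 0.80. Of all genes called, 54.4% were higher in deep cells, against 43.2% with library sizes only.

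Upper layer-like and deep corticofugal-like cells differed in 5 of the 10 genes, 2 higher and 3 lower in upper layer-like cells (8.94% of all tested genes were higher and 10.0% lower). Flrt3 was at 102.8 and 100.6 CPM in upper layer-like against 16.8 and 12.6 CPM in deep cells, 6.38-fold higher (log2 2.67 ± 0.26, edgeR adjusted p = 5.85e-07). Adgrl3 was at 1786 and 923 CPM against 315 and 244 CPM, 4.56-fold higher (log2 2.19 ± 0.32, edgeR adjusted p = 6.10e-05). Both groups were apart in each gene, though replicate 1 stood far above replicate 3 for Adgrl3. Upper layer-like cells included the Tfap2d-led cluster, where Adgrl3 reached 3190 and 2338 CPM, and without it the log2 difference was 1.09 (adjusted p = 0.00806). Lower in upper layer-like cells were Tenm1 (108.8 and 108.3 CPM, 6.09-fold, log2 -2.61 ± 0.43), Flrt2 (168.8 and 199.0 CPM, 2.87-fold, -1.52 ± 0.28) and Adgrl1 (77.7 and 77.8 CPM, 1.43-fold, -0.52 ± 0.17, edgeR adjusted p = 0.0437). Tenm2 (1956 and 1878 CPM, log2 -1.39 ± 0.56, edgeR adjusted p = 0.0908) and Tenm3 (351 and 313 CPM, -0.83 ± 0.31, edgeR adjusted p = 0.0676) did not pass, and with the replicate as a block they did (adjusted p = 0.0437 and 0.0309). Adgrl2 (0.43), Tenm4 (-0.42) and Flrt1 (0.47) did not pass. The Adgrl1 call was lost in 7 of the settings tried, and that of Flrt2 with coarser clusters (-0.87, adjusted p = 0.0621). Of all genes called, 47.1% were higher in upper layer-like cells, against 36.8% with RLE scaling and 58.1% with library sizes only.

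Cajal-Retzius-like cells were set against the mean of the projection neuron subclasses, and 2 of the 10 genes were higher and 7 lower (14.2% of all tested genes were higher and 13.6% lower). Adgrl3 (log2 1.08 ± 0.24, edgeR adjusted p = 0.00226) and Flrt3 (1.02 ± 0.24, edgeR adjusted p = 0.00333) were the higher genes. Both differences are from the mean, and upper layer-like cells alone overlapped Cajal-Retzius-like cells in each gene. Adgrl3 was at 1786 and 923 against 1102 and 1134 CPM, and Flrt3 at 102.8 and 100.6 against 98.3 and 115.6 CPM. All 4 teneurins were lower, Tenm3 by 15.4-fold (log2 -3.95 ± 0.40, edgeR adjusted p = 4.14e-07), Tenm2 by 13.0-fold (-3.70 ± 0.59), Tenm4 by 3.73-fold (-1.90 ± 0.25) and Tenm1 by 3.19-fold (-1.68 ± 0.49). For Tenm3 the difference was -5.89 in replicate 1 and -3.31 in replicate 3, for Tenm2 -4.29 and -3.24, and for Flrt2 -3.33 and -1.35 (-1.85 ± 0.30 together). In Tenm1 (80.7 and 38.5 CPM) and Flrt2 (21.1 and 100.1 CPM) Cajal-Retzius-like cells overlapped newborn-like cells, at 53.2 and 50.7 CPM and at 72.4 and 97.4 CPM. Adgrl2 (-1.16 ± 0.18) and Flrt1 (-1.11 ± 0.35, edgeR adjusted p = 0.0247) were lower, and Adgrl1 (-0.31) did not pass. With predicted doublets kept, Adgrl3 (0.76, adjusted p = 0.110) and Flrt3 (0.61, adjusted p = 0.0644) were not called, and Tenm1 was not called by DESeq2 (adjusted p = 0.135). Over all called genes, 51.2% were higher, against 72.6% with library sizes only and 62.9% by DESeq2.

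Meningeal-like cells, the fibroblasts over the cortical surface, were compared with RGC-like cells, whose endfeet reach that surface. Of the 10 genes, 3 were higher and 4 lower in meningeal-like cells (22.2% of all tested genes were higher and 25.3% lower). Flrt2 was 23.7-fold higher (log2 4.57 ± 0.32, edgeR adjusted p = 1.14e-09), Adgrl3 3.49-fold higher (1.80 ± 0.32, edgeR adjusted p = 0.000154) and Flrt1 3.48-fold higher (1.80 ± 0.42, edgeR adjusted p = 0.00186). The Flrt1 difference was 2.99 in replicate 1 and 0.82 in replicate 3, from levels of 21.4 and 6.0 CPM, and was lost under a stricter cell filter (1.22, adjusted p = 0.130). Tenm3 was 8.64-fold lower (log2 -3.11 ± 0.38), Tenm4 5.69-fold lower (-2.51 ± 0.30) and Adgrl2 1.73-fold lower (-0.79 ± 0.20). Tenm2 was 4.35-fold lower (-2.12 ± 0.62, edgeR adjusted p = 0.00821), with -1.04 and -3.36 in the replicates, and was not called by DESeq2 (adjusted p = 0.0840). Adgrl1 (0.15), Tenm1 (-1.26) and Flrt3 (0.45) did not pass. Of all genes called, 46.8% were higher in meningeal-like cells, against 60.9% with RLE scaling and 61.7% by DESeq2.

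**Figure D3:**
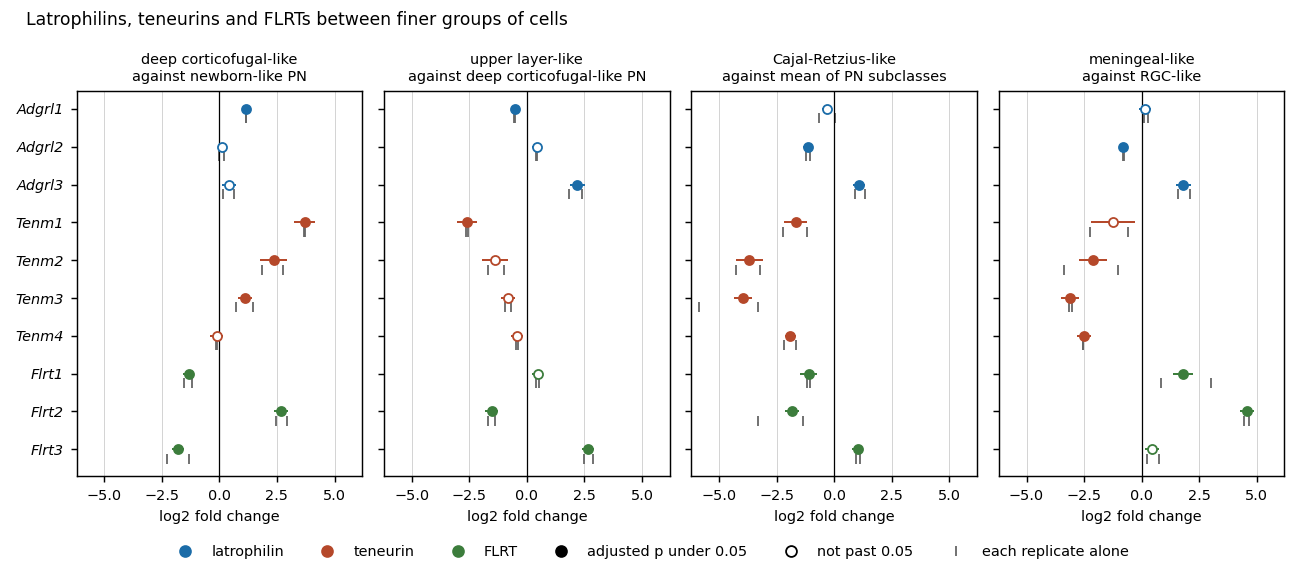
Log2 difference of each gene in the 4 comparisons among finer groups, with bars of 1 SE and filled points where the edgeR adjusted p was under 0.05, and grey ticks for each replicate. Flrt2 and Flrt3 lie on opposite sides of 0 for deep against newborn-like and for upper layer-like against deep cells.

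The named groups hold clusters that differed among themselves. Within RGC-like cells, the cluster led by Ltbp1 held 1345 and 1266 CPM of Tenm4, against 285 to 831 CPM in the other 3 RGC-like clusters. The same cluster held 679 and 793 CPM of Tenm2 and 188.1 and 189.7 CPM of Adgrl3, with 199 to 519 CPM and 18.8 to 103.3 CPM in the others. It was the lowest RGC-like cluster for Adgrl2, at 156 and 163 CPM. It held 89 of the 637 and 427 of the 1497 RGC-like cells, and the RGC-like levels of Tenm4, Tenm2 and Adgrl3 were higher in replicate 3, where it was larger. The part of this share in those levels was not tested.

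Within IPC-like cells, Flrt1 stood at 97.3 and 68.5 CPM in the cluster led by Kif26b and Eomes and at 43.0 and 35.2 CPM in the cluster led by cell cycle genes such as Rrm2 and Mki67. The Rrm2-led cluster lay below the newborn-like neuron cluster led by Gabra2 (64.9 and 76.3 CPM), the unnamed cluster led by Pcp4 and Neurod1 (68.2 and 59.6 CPM) and the projection neuron cluster led by Ndst3 (58.0 and 59.7 CPM), and all 3 of these overlapped the range of the IPC-like group. In IPC-like cells Tenm4 was likewise higher in the Kif26b-led cluster, at 1696 and 1542 CPM against 909 and 1118 CPM. The newborn-like cluster led by Cdh8 and Unc5d had the highest Tenm4 of all clusters, at 2862 and 2667 CPM. Among projection neurons, the clusters led by Slit3 and Crym and by Hs3st4 held 5805 and 5355 CPM and 5879 and 3596 CPM of Tenm2. These orders were seen in the same cells that formed the clusters and were not tested.

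**Figure D4:**
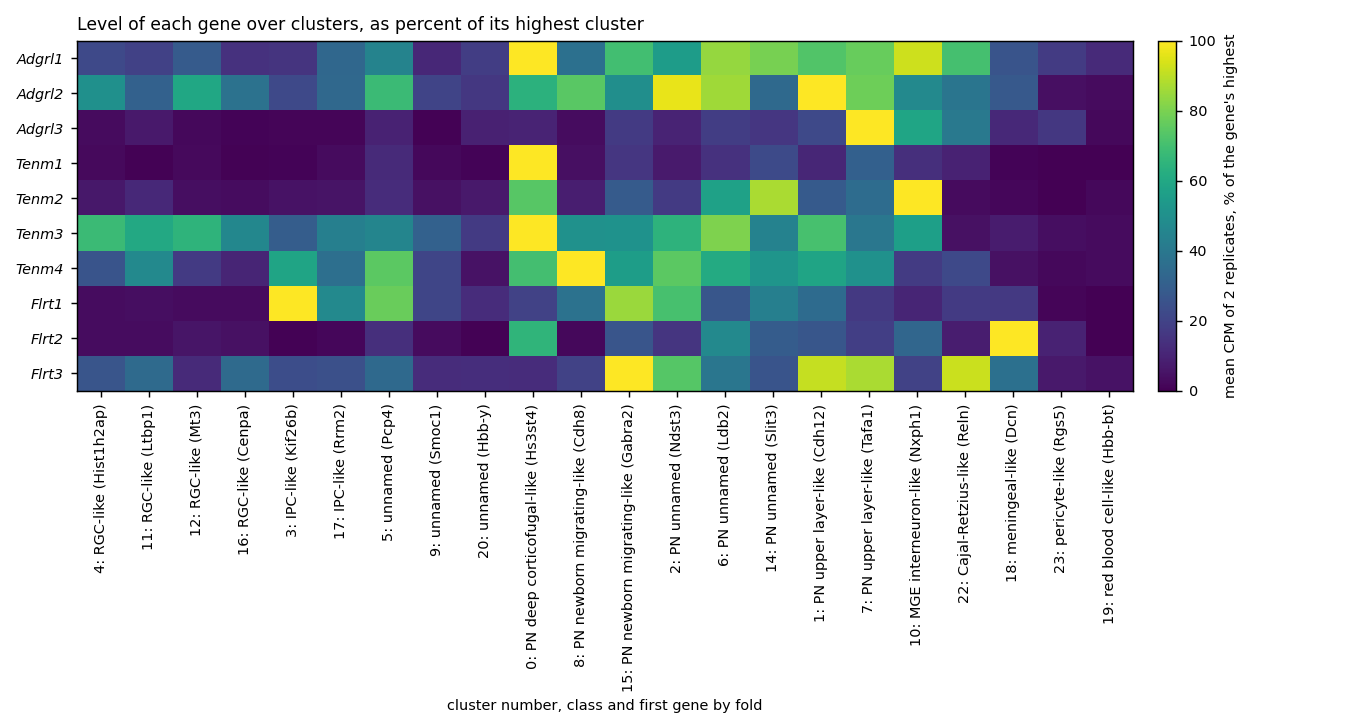
Heat map of the level of each of the 10 genes (rows) in the clusters (columns, ordered by named group and marked with their first gene by fold), as the mean CPM of the 2 replicates in percent of the gene's highest cluster, on a colour scale from dark (0) to yellow. Adgrl3 peaks in the cluster led by Tafa1 and Tfap2d (3190 and 2338 CPM) and Tenm4 in the Cdh8-led cluster (2862 and 2667 CPM).

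Detection per cell was read after thinning each cell to 3000 UMIs, since median depth ran from 4545 and 4056 UMIs in MGE interneuron-like to 13339 and 12282 UMIs in RGC-like cells. Thinning left out 22 and 33 RGC-like, 3 and 23 IPC-like, 76 and 145 projection neuron-like and 68 and 61 MGE interneuron-like cells. A UMI of any teneurin was found in 90.5% ± 3.16 (SD, n = 2) of RGC-like, 92.4% ± 2.46 of IPC-like, 99.7% ± 0.27 of projection neuron-like and 96.0% ± 2.91 of MGE interneuron-like cells. A UMI of any latrophilin was found in 59.3% ± 1.25, 35.3% ± 4.39, 84.4% ± 3.62 and 96.8% ± 0.82 of them. Of the receptor family, therefore, fewest IPC-like cells had a UMI, while the ligand family of teneurins was found in most cells of every neural group. In red blood cell-like cells, of median depth 5311 and 4541 UMIs, any teneurin was found in 12.5% of 48 cells (95% Wilson interval 5.86 to 24.7%) and 9.84% of 61 cells (4.59 to 19.8%), and any latrophilin in 12.5% (5.86 to 24.7%) and 4.92% (1.69 to 13.5%).

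Adgrl3 was found in 94.1% ± 0.23 of MGE interneuron-like and 52.8% ± 8.96 of projection neuron-like cells, against 15.1% ± 3.66 of RGC-like and 7.87% ± 2.83 of IPC-like cells. Flrt1 was found in 16.8% ± 3.36 of IPC-like and 0.99% ± 0.25 of RGC-like cells, and in 0 of 48 and 0 of 61 red blood cell-like cells, which allows a share of up to 6.25% and 4.92%. The RGC-like share of Flrt1 is within that limit. Flrt2 was found in 36.6% ± 2.59 of projection neuron-like and 40.2% ± 0.52 of MGE interneuron-like cells but in 2.23% ± 0.52 of IPC-like cells.

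RNA of any latrophilin together with RNA of any teneurin or FLRT in the same cell was found in 55.0% ± 0.23 of RGC-like, 33.5% ± 3.75 of IPC-like, 84.2% ± 3.40 of projection neuron-like and 94.0% ± 2.18 of MGE interneuron-like cells. Since most cells of each group had a teneurin UMI, the joint shares largely follow those of any latrophilin (59.3%, 35.3%, 84.4% and 96.8%). Matched pairs were not counted. In red blood cell-like cells it was found in 4.17% of 48 cells (1.15 to 14.0%) and 1.64% of 61 cells (0.29 to 8.72%). These shares depend on depth. At 1500 UMIs per cell they were 29.8%, 19.9%, 67.6% and 84.1%, at 5000 UMIs 73.0%, 47.0%, 92.3% and 97.3%, and without thinning 89.6%, 65.2% and 97.4% for the first 3 groups, with IPC-like cells the lowest each time.

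**Figure D5:**
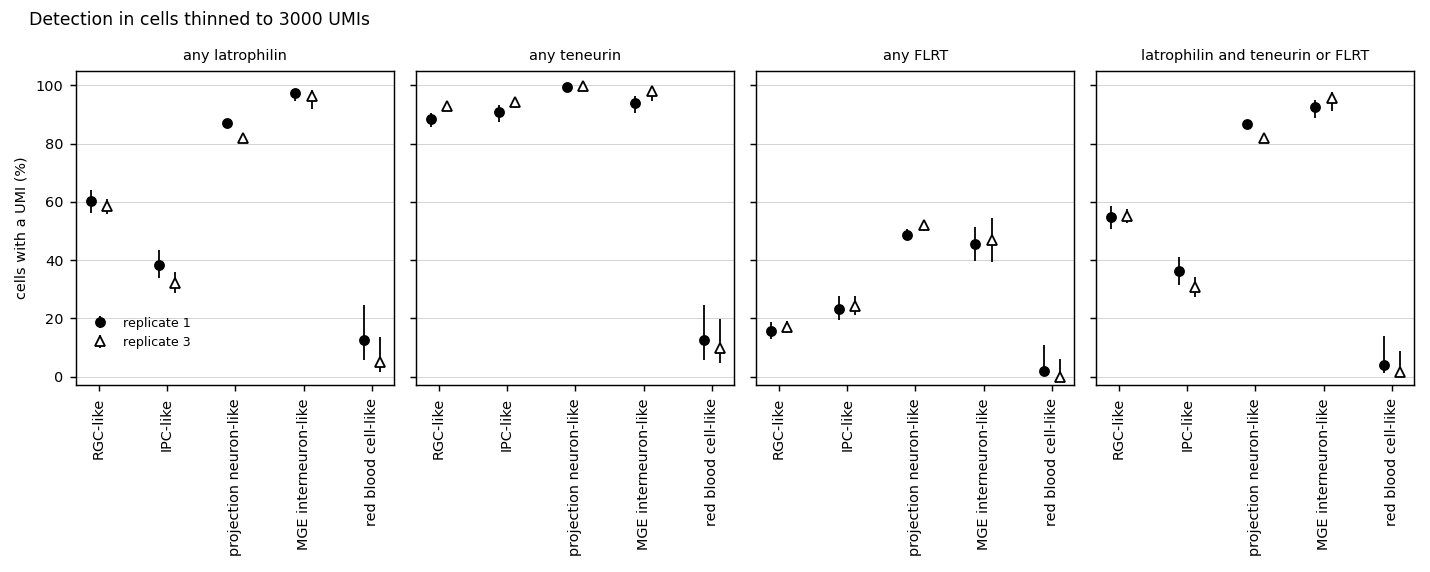
Share of cells (percent) with at least 1 UMI of any latrophilin, any teneurin, any FLRT, and of a latrophilin with a teneurin or FLRT, after thinning to 3000 UMIs, for each replicate with 95% Wilson intervals. Teneurins are near the top in all 4 neural groups, latrophilins dip in IPC-like cells (35.3% on average), and red blood cell-like cells stay low.

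A list of 18 known partners of these proteins covered UNC5 receptors, other surface partners such as contactins and glypicans, and intracellular partners such as the Shank scaffolds. All but Adgrl4, a latrophilin relative of blood vessels that stayed at or under 0.5 CPM in the neural groups, were tested. Of these 17, 7 were higher and 5 lower in RGC-like against IPC-like cells (21.6% and 20.9% of all tested genes), and 1 was higher and 11 lower in IPC-like against projection neuron-like cells (22.8% and 26.3%). In RGC-like against projection neuron-like cells 5 were higher and 10 lower (30.2% and 36.0% of all tested genes). For MGE interneuron-like cells 10 were higher and 4 lower against projection neuron-like cells (13.7% and 22.0%), and 9 higher and 3 lower against RGC-like cells (29.8% and 31.2%). In deep against newborn-like cells 8 were higher and 2 lower (17.1% and 14.3%), and in upper layer-like against deep cells 2 and 3 (8.94% and 10.0%). In Cajal-Retzius-like cells 6 were higher and 5 lower (14.2% and 13.6%), and in meningeal-like against RGC-like cells 5 and 4 (22.2% and 25.3%). With the replicate as a block 0 to 2 more partners were called in each comparison, such as 14 in place of 12 in IPC-like against projection neuron-like cells.

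Unc5d, an FLRT receptor of young migrating neurons, gave some of the largest differences. IPC-like cells held 2212 and 1331 CPM and projection neuron-like cells 1647 and 1277 CPM, against 182.4 and 50.1 CPM in RGC-like cells (log2 -4.03 ± 0.54 for RGC-like against IPC-like cells, edgeR adjusted p = 0.000475, with -3.68 and -4.82 in the replicates). Against projection neuron-like cells the level was lower in RGC-like (-3.90 ± 0.54) and in MGE interneuron-like cells (-3.03 ± 0.53). Among projection neurons, Unc5d was lower in deep than in newborn-like cells (-6.77 ± 0.61, edgeR adjusted p = 8.76e-08) and higher in upper layer-like than deep cells (4.93 ± 0.56, edgeR adjusted p = 3.85e-06). In both of these comparisons, which share the same deep cells, the difference had the sign of Flrt3 and the opposite sign of Flrt2. For newborn-like cells this describes the pooled group. Its cluster led by Cdh8 and Unc5d held 12.7 and 33.2 CPM of Flrt3, overlapping the deep cells (16.8 and 12.6 CPM). Its Gabra2-led cluster held 105.9 and 126.9 CPM. With another clustering seed the Flrt3 difference was -0.66 (edgeR adjusted p = 0.110). In Cajal-Retzius-like cells Unc5d was lower (-5.55 ± 0.67) while Unc5b, a sister receptor, was higher (4.72 ± 0.28), at 94.8 and 109.0 CPM.

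Among the other partners, Nrxn3, a presynaptic neurexin, was higher in MGE interneuron-like than projection neuron-like cells (log2 9.24 ± 0.87, edgeR adjusted p = 0.000109) and than in RGC-like cells (8.68 ± 0.85). Gpc3, the glypican that binds UNC5 receptors, was higher in RGC-like than IPC-like (3.76 ± 0.25) and projection neuron-like cells (5.58 ± 0.24), and higher still in meningeal-like cells (3.88 ± 0.18 against RGC-like cells).

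Unc5c was higher in MGE interneuron-like (log2 5.59 ± 0.38) and meningeal-like cells (3.94 ± 0.55) than in RGC-like cells. Cntn6, a contactin that binds latrophilins, was higher in RGC-like than IPC-like cells (3.34 ± 0.72, with 4.42 and 2.21 in the replicates) and in MGE interneuron-like than projection neuron-like cells (3.09 ± 0.64), from levels of at most 14.1 CPM. Shank1, a scaffold that binds the latrophilin tail, was lower in IPC-like than projection neuron-like cells (-5.01 ± 0.18) and higher in deep than in newborn-like cells (2.57 ± 0.22). Shank2 was lower in meningeal-like than RGC-like cells (-3.73 ± 0.53, with -6.46 and -2.97 in the replicates). Rnd1, a small GTPase, was lower in Cajal-Retzius-like cells (-2.46 ± 0.77, edgeR adjusted p = 0.0223) but not by DESeq2 (adjusted p = 0.0848). Robo1, an axon guidance receptor, was lower in IPC-like than projection neuron-like cells (-3.41 ± 0.19), and Fgfr1, a growth factor receptor, was higher in upper layer-like than deep cells (1.90 ± 0.16), a sign that turned without the cell filter (-0.29).

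Genes with the most similar profile were sought over the 10 groups of the finer fit, among 14656 genes, by the lower of the 2 replicates' Pearson correlations of log2(CPM + 1). These correlations share libraries and cells and are given as a description. For the latrophilins they were Hsdl1, Sema4g and Scn2a for Adgrl1 (0.95 each), Ccdc171, Abhd6 and Rnf157 for Adgrl2 (0.96, 0.96 and 0.95), and Sema6b, Plekha1 and Ano4 for Adgrl3 (0.90, 0.85 and 0.85). For the teneurins they were Atp8a2, Khdrbs2 and Zmiz1os1 for Tenm1 (0.96, 0.96 and 0.94), Fgf14, Lrrn1 and Ank for Tenm2 (0.93, 0.93 and 0.92), Bach2, 9530051G07Rik and Ppm1l for Tenm3 (0.94, 0.91 and 0.89), and Sez6l, Pcdh7 and Serinc2 for Tenm4 (0.95 each). For the FLRTs they were Ube2b, Myt1 and Gm47962 for Flrt1 (0.91, 0.91 and 0.89), Mgat3, Gm43672 and 2810032G03Rik for Flrt2 (0.90, 0.89 and 0.88), and Hs6st3, D2hgdh and Rogdi for Flrt3 (0.82, 0.81 and 0.81). Flrt3 thus had the least close neighbours of the 10 genes. Between members, Adgrl1 and Tenm1 (0.90 and 0.85 in the replicates) and Tenm1 and Tenm2 (0.84 and 0.90) ran close together, while Adgrl3 and Tenm3 did not (-0.06 and 0.15).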

How the data were processed

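The authors prepared 10x Genomics 3' v3.1 libraries from dissociated dorsal telencephalon and made the matrices with Cell Ranger 7.0.0 on mm10, per the labels and the submitters' processing notes. The deposited values are raw UMI counts per gene and barcode. The strand and intron settings of the counting are not given in the sources used here. Each gene keeps 1 row of counts per sample, and no per-sample column was left unused.

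Barcodes under 1500 or over 60000 UMIs, or with a mitochondrial share of 10% or more, were removed (710 and 1387), and 304 and 629 predicted doublets were dropped by a simulated-doublet score, at 0.8% per 1000 cells. Cells were clustered together in scanpy 1.11.5 (2000 variable genes without the 10 genes and their partners, 30 components, 15 neighbours, Leiden resolution 1.0). A cluster was named only with 3 or more of its markers present and its leading genes not against the name. UMIs were summed per group and replicate for groups with at least 30 cells in each, and tested with edgeR 4.0.16 (glmQLFit and glmQLFTest, TMM, filterByExpr, prior count 2 for fold changes) in R 4.3.3 without a replicate block. One fit held the 4 main groups and another 10 finer groups, and 9 comparisons were made, with an adjusted p under 0.05 as the threshold. DESeq2 1.42.0 was an alternative. The fits were also run on counts simulated from the same model with few changed genes. That run does not test the scaling between groups that differ in as many genes as these. SE is the log2 difference divided by the square root of its F statistic. Levels are UMIs per 1000000 (CPM), and a level or share at 0 was bounded by 3 UMIs or cells. Wilson intervals, floors and SEs of single libraries cover counting error only.

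Groups of the same replicate number come from 1 library, so the numbers pair the sums. Deviations from the group means correlated by 0.0157 to 0.248 over 6 pairs of main groups and by -0.00491 to 0.298 over 45 pairs of finer groups.

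The 10 genes, the partner list and the marker lists were chosen with earlier results of these data known. The text names all 10 genes, the 3 partners with the largest called difference of equal sign in both replicates in each comparison (some results are not reported here), and the 3 genes most like each of the 10. Clusters and overlapping genes singled out beyond this were chosen after their values were seen. LGE lineage-like cells, 5 of whose 8 markers were at 0 in replicate 3, and groups under 30 cells were not compared. Promoter windows came from RefSeq. Protein sequences were not used here.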

Additional observations from a re-analysis of the deposited data

How the results depend on the processing

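Of 1310 values of the 90 gene differences under other settings, 1216 were unchanged, that is, kept their direction and side of the threshold. With 1 replicate left out no test was run, and only the direction was compared. The smallest group compared held 31 cells in 1 library, and the smallest difference detectable at this depth was not measured.

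These differences, in log2, changed sign under other settings of the processing. RGC-like against IPC-like: Adgrl1 was -0.15 without a cell filter, -0.077 at Leiden resolution 0.5, -0.10 at 2.0 and -0.057 with the members among the variable genes, where Flrt3 was -0.045. MGE interneuron-like against projection neuron-like: Adgrl1 was -0.025 with a stricter cell filter. MGE interneuron-like against RGC-like: Adgrl2 was -0.0020 with library sizes only and -0.078 with the stricter filter, and with doublets kept Tenm4 was 0.022 and Flrt3 0.13. Deep against newborn-like: Adgrl2 was -0.022 with library sizes only, -0.88 without a cell filter, -0.32 with the stricter filter, -0.66 and -0.20 at resolutions 0.5 and 2.0 and -0.30 with the members among the variable genes; Adgrl3 was -0.22 at resolution 2.0 and -0.23 with the members among the variable genes, where Tenm4 was 0.062 (0.0010 at 2.0). Upper layer-like against deep: Flrt1 was -0.68 without a cell filter and -0.35 with the members among the variable genes, and Fgfr1 -0.29 without a cell filter. Meningeal-like against RGC-like: Tenm1 was 1.18 with doublets kept. Of these, Tenm4 (MGE interneuron-like against RGC-like) and Fgfr1 had been called, and Adgrl2 (adjusted p = 0.000782 without a cell filter, 0.00412 at resolution 0.5) and Tenm1 (0.0309) became called with the other sign. Leaving out 1 replicate also turned Adgrl1 (-0.13), Tenm1 (0.063) and Flrt3 (-0.061) in RGC-like against IPC-like cells, Adgrl2 in MGE interneuron-like against RGC-like (-0.013) and in deep against newborn-like cells (-0.00064), and Adgrl1 in Cajal-Retzius-like cells (0.049), none of them called. The cause was not tested.

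The number of genes called between upper layer-like and deep cells was 2781, and it was 1674 with doublets kept and 1660 at resolution 0.5. Scaling by library sizes moved the median of all genes by 0.14 (IPC-like against projection neuron-like), 0.23 (RGC-like against projection neuron-like), 0.15 (MGE interneuron-like against projection neuron-like), -0.12 (deep against newborn-like) and 0.25 (Cajal-Retzius-like), RLE by 0.12, 0.11 and 0.23 (RGC-like against projection neuron-like, Cajal-Retzius-like, meningeal-like) and DESeq2 by 0.12, 0.11 and 0.24 in the same comparisons. The replicate block changed 5 calls of the 10 genes, each given beside its value, and no other of theirs, and raised the number of partners called by 0 to 2 in each comparison. The Cajal-Retzius-like comparison was not run under the stricter filter, and subplate, CGE and LGE comparisons were not run because a group had under 30 cells in a replicate.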
